A study of Rattus norvegicus with 49 samples.

Results

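The genes described here are 9 inflammation genes of the NF-kB pathway: Nfkb1, Nfkbia, Tnfaip3, Tnf, Il1b, Il6, Ccl2, Cxcl1 and Icam1. They were found as the probe sets of the Affymetrix Rat Genome 230 2.0 array whose platform annotation gives exactly 1 of these symbols, which were 10 probe sets for the 9 genes out of 14217 genes on the array. Each gene had 1 probe set except Tnf, which had 2. The study measured liver and kidney RNA of male Harlan Sprague Dawley rats dosed with propylene glycol phenyl ether, a glycol ether solvent. The rats entered the study at 6 to 8 weeks of age, were housed 5 to a cage on NTP-2000 diet, received the compound in corn oil by gavage at 5 mL/kg on 5 days in a row, and were killed on the day after the last dose. The compound groups received 1, 10, 100, 500 or 1000 mg/kg and the control group received corn oil at 0 mg/kg. The liver had 4 arrays at each dose of the compound and 5 at 0 mg/kg, and the kidney had 3 arrays at 500 mg/kg, 4 at each other dose of the compound and 5 at 0 mg/kg. The compound is taken from the title and sample labels, since the treatment text names another compound, MCHM. Replicates are described as biological, so the spread between arrays of a group is that between tissue samples.

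NF-kB is a family of dimeric transcription factors held in the cytoplasm by inhibitors such as IkBa, the product of Nfkbia. Signals from TNF, interleukin-1 or Toll-like receptors activate a kinase complex that marks the inhibitor for degradation, after which the dimers enter the nucleus and switch on cytokine, chemokine and adhesion genes. The same dimers switch on Nfkbia and Tnfaip3, whose products shut the signal off again. In the liver the resident macrophages, called Kupffer cells, are a known source of these cytokines, and in the kidney tubule cells and resident macrophages can make the chemokines. These roles are known mainly from human and mouse cells.

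The promoters of 3 of the genes are shown. Tnfaip3 carried the called change, in the kidney, and varied most closely with Cxcl1 in the liver, but not in the kidney. Nfkbia is shown because it encodes the inhibitor the pathway turns on. Each sequence is the 250 bases before the annotated transcription start on the gene's own strand, from RefSeq on the rat build GRCr8, and capitals mark matches to the NF-kB (kappa B) consensus on either strand. The first, of Tnfaip3, lies at chr1:15543980-15544229 on the minus strand, the second, of Nfkbia, at chr6:78597073-78597322 on the minus strand, and the third, of Cxcl1, at chr14:17479322-17479571 on the minus strand.
Tnfaip3: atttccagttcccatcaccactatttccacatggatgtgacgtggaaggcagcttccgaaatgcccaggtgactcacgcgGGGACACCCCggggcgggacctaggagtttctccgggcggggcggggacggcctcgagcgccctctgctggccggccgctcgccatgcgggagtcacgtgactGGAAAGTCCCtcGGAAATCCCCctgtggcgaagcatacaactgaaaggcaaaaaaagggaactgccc
Nfkbia: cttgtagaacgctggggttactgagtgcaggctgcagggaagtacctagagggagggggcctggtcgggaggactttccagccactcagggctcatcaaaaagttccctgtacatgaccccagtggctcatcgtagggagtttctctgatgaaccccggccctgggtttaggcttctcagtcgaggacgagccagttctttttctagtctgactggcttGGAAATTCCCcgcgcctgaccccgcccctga
Cxcl1: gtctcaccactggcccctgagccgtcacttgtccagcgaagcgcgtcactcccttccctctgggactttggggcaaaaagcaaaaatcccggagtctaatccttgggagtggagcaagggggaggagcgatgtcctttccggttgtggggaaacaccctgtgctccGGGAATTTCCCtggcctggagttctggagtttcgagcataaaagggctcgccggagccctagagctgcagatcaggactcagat

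Tnfaip3 had 3 matches, at positions -170 to -161, -67 to -58 and -55 to -46 from the start. Nfkbia had 1 match at -31 to -22, and Cxcl1 had 2 that overlap each other, at -84 to -75 and -83 to -74. Of the 9 genes, 8 had an entry in the promoter table, and 4 of the 8 held a match, the fourth being Il6 at -68 to -59. A match was found in 3.52% of all 27457 promoters of the same length, in 4.28% of the 11734 promoters of genes on the array, and in 15 of 51 promoters (29.4%) of other genes of the pathway. Such a match describes the letters in the window only.

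All values are RMA log2 values as the authors deposited them, so a difference of 1 is a doubling of signal. The liver arrays had medians of 6.47 to 6.62 and the kidney arrays of 6.62 to 6.77, and within an organ the lowest correlation of any 2 arrays over all genes was 0.987. Every hepatocyte marker was higher in all liver arrays than in any kidney array, and every kidney tubule and podocyte marker the other way round. Of the 9 genes, 5 in liver (Nfkb1, Nfkbia, Tnfaip3, Il1b and Icam1) and 3 in kidney (Nfkb1, Nfkbia and Icam1) had a mean at or above the median gene of the organ. The files hold no detection calls, so the low values of Il6, Tnf, Ccl2 and Cxcl1 are not shown to lie above background. Differences between doses were tested with limma in each organ on its own. The difference between the organs was tested with limma in 1 model of all 49 arrays, with 1 mean per organ and dose. Each test had Benjamini-Hochberg adjustment over all 14217 genes, and a gene is called changed where its adjusted p is under 0.05.

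In the kidney 1 of the 9 genes fell at 1000 mg/kg, Tnfaip3, to 0.694 of the control signal. In the liver none of the 9 genes changed past the threshold at any dose. The response of Tnfaip3 to 1000 mg/kg was called as different between the organs, where 0.626% of all genes were called. That call was lost with arrays centred on their medians and in 7 of the 49 fits that left 1 array out. No cytokine, chemokine or adhesion gene of the 9 was called in any comparison. For setting beside these counts, 1.55% of all genes were called at 1000 mg/kg in the kidney and 1.05% in the liver.

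Tnfaip3 encodes a ubiquitin-editing enzyme that ends NF-kB signalling downstream of the TNF and Toll-like receptors. In the kidney its values were 5.82, 5.88, 5.93 and 6.16 at 1000 mg/kg, against 6.36, 6.65, 6.58, 6.50 and 6.29 in controls. Every array at 1000 mg/kg lay below every control array, a separation that 4.71% of all genes showed in 1 direction or the other. The means were 5.95 ± 0.15 (SD, n = 4) at 1000 mg/kg and 6.48 ± 0.15 (SD, n = 5) in controls, and Tnfaip3 ranked 49th of all genes by p, with a log2 change of -0.53 (SE 0.09, 95% interval -0.72 to -0.34, limma adjusted p = 0.00252). The fall stood at the highest dose: the kidney mean was 6.48 in controls, 6.47 after 1 mg/kg, 6.27 after 10 mg/kg, 6.38 after 100 mg/kg, 6.49 after 500 mg/kg and 5.95 after 1000 mg/kg. At 10 mg/kg the values were 6.22, 6.31, 6.23 and 6.33, which overlapped the controls, and the change of -0.21 was not called (limma adjusted p = 0.663).

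Over all 6 kidney groups Tnfaip3 was also the 1 gene of the 9 called for any difference among doses (limma adjusted p = 0.0257, against 0.38% of all genes called), but that call was lost without replicate 1, 2 or 3 of 1000 mg/kg, each left out in turn. A linear trend over the rank of the dose called 0 of the 9 genes (1.39% of all genes called), with Tnfaip3 falling by 0.08 per step at an adjusted p of 0.0829 by limma. At an unadjusted p under 0.05 the trend had 4 of the 9 genes, Tnfaip3, Il1b, Ccl2 and Icam1, all with negative slopes, where 12.5% of all genes reached that level. Leaving out control replicate 5, or replicate 1 or 3 of 500 mg/kg, brought Tnfaip3 past the threshold in the trend.

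**Figure D1:**
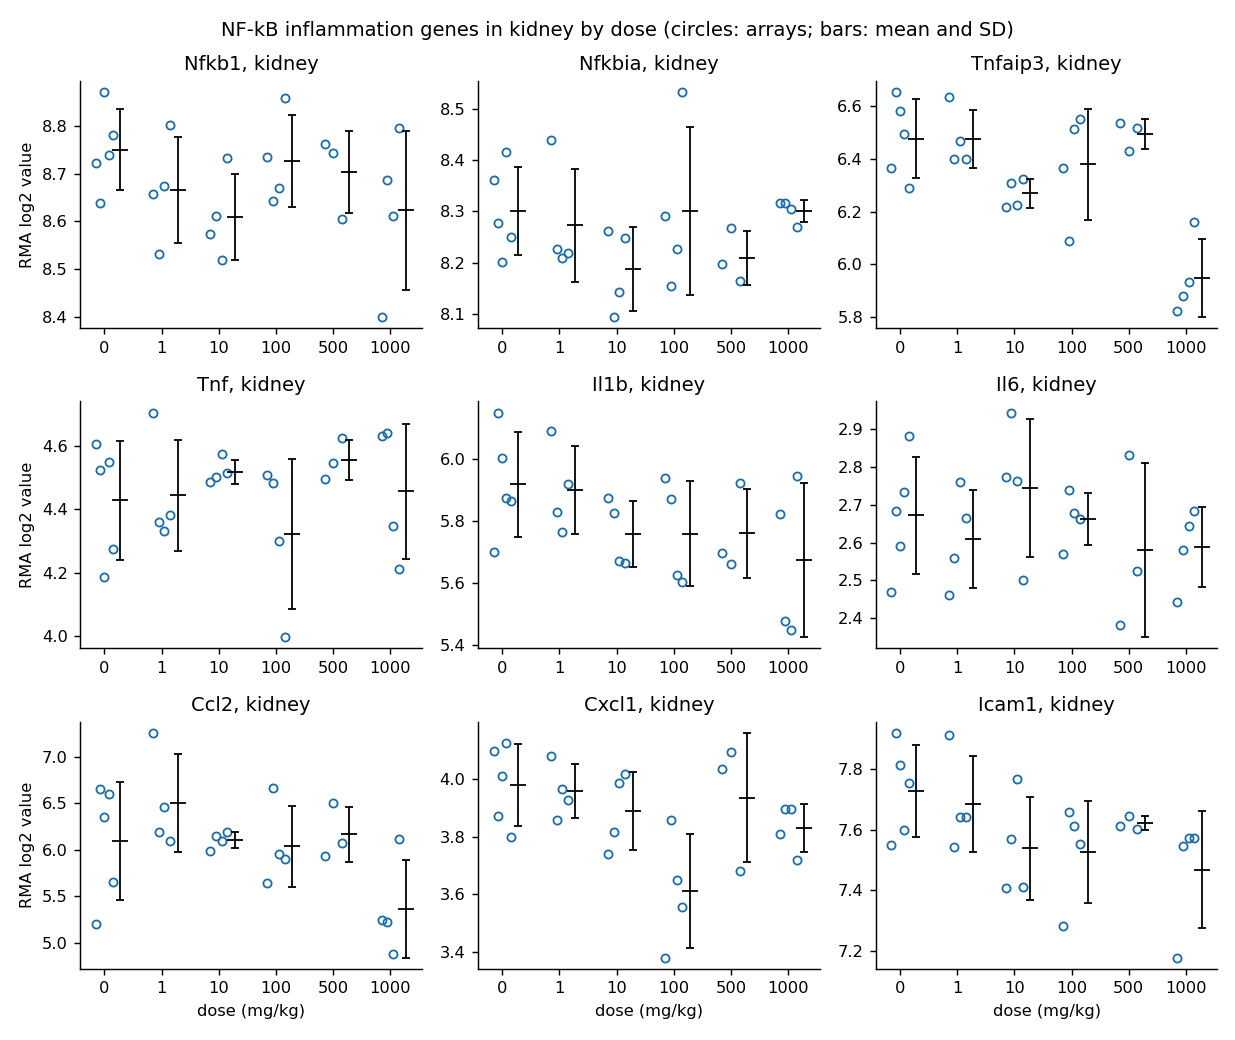
RMA log2 values of the 9 genes in kidney by dose in mg/kg, 1 circle per array, with the mean and SD of each group beside them (n = 5 at 0 mg/kg, 3 at 500 mg/kg and 4 elsewhere). The 4 Tnfaip3 arrays at 1000 mg/kg lie between 5.82 and 6.16, below the lowest control at 6.29. Each panel has its own vertical axis.

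Markers of other cells moved in the same kidneys. The mean of 10 macrophage markers ranged from 6.30 to 6.40 over the arrays at 1000 mg/kg, against 6.54 to 6.66 in controls, with no overlap. Of the 10 markers 9 were lower (7 of 10 when each array was centred on its median), 1 of them called. The mean of 8 endothelial markers ranged from 7.75 to 7.86 at 1000 mg/kg and from 7.89 to 8.03 in controls. Of the 8 markers 7 were lower, none called. Among all genes taken singly 55.5% were lower at 1000 mg/kg, 1.55% were called and 4.71% did not overlap the controls. The endothelial mean differed from controls by -0.14 at 1000 mg/kg, and also by -0.13 at 500, -0.10 at 100 and -0.12 at 10 mg/kg. Lymphocyte markers ranged from 4.52 to 4.67 at 1000 mg/kg and from 4.58 to 4.78 in controls, and neutrophil and monocyte markers from 3.76 to 4.12 and from 3.87 to 4.31 in the same order. Adipocyte markers ranged from 5.39 to 5.68 at 1000 mg/kg and from 5.55 to 6.61 in controls. The part of these cells in the Tnfaip3 result was not tested, except that without the 7 kidney arrays whose adipocyte markers stood more than 0.5 above the control mean the Tnfaip3 change was -0.52 (limma adjusted p = 0.0406) and the call for any difference among doses was lost, and that with the adipocyte level as a covariate the change was -0.51 (limma adjusted p = 0.00549). Since the arrays measure RNA of whole tissue, fewer cells of a type and less RNA per cell cannot be told apart. The tubule and podocyte markers ranged from 11.98 to 12.21 at 1000 mg/kg and from 11.95 to 12.21 in controls.

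In the liver Tnfaip3 had its highest values at 100 mg/kg, with 6.79, 6.77, 7.24 and 7.52, against 6.61, 6.50, 6.70, 6.04 and 6.10 in controls. These 4 arrays lay above every control, and 3.42% of all genes were separated from their controls in either direction at that dose. The mean was 7.08 ± 0.36 (SD, n = 4) at 100 mg/kg and 6.39 ± 0.30 (SD, n = 5) in controls, a log2 change of 0.69 (SE 0.17), or 1.61-fold, which ranked 17th of all genes by p and was not called (unadjusted p = 0.000395, adjusted p = 0.301 by limma). No gene of the array was called at 100 mg/kg in the liver, a share of 0%. The liver mean was 6.39 in controls, 6.57 after 1 mg/kg, 6.32 after 10 mg/kg, 7.08 after 100 mg/kg, 6.60 after 500 mg/kg and 6.71 after 1000 mg/kg, so the highest value stood at a middle dose. At 1000 mg/kg the values 6.59, 6.50, 6.86 and 6.89 overlapped those of the controls, and the change was 0.32 (SE 0.17, limma adjusted p = 0.437).

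Nfkbia, the inhibitor that retains NF-kB in the cytoplasm and is itself a target gene, had the smallest p of the 9 genes in liver at 1000 mg/kg. Its values were 8.85, 8.50, 8.63 and 8.38 at 1000 mg/kg, against 8.22, 8.61, 8.09, 8.29 and 8.17 in controls. The groups overlapped, 1 control lying above 2 of the 4 treated arrays. The mean was 8.59 ± 0.20 (SD, n = 4) at 1000 mg/kg and 8.28 ± 0.20 (SD, n = 5) in controls, a log2 change of 0.32 (SE 0.11) that did not pass (unadjusted p = 0.0102, adjusted p = 0.217 by limma). In the kidney Nfkbia averaged 8.30 ± 0.02 (SD, n = 4) at 1000 mg/kg and 8.30 ± 0.09 (SD, n = 5) in controls, and the 95% interval of the log2 change ran from -0.15 to 0.15.

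Nfkb1, which encodes the precursor of 1 subunit of the NF-kB dimer, was among the steadiest of the genes. Over all arrays it ranged from 8.26 to 8.83 in liver and from 8.40 to 8.87 in kidney. Its log2 change at 1000 mg/kg was 0.04 in liver (95% interval -0.14 to 0.22) and -0.13 in kidney (95% interval -0.29 to 0.03), neither called.

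The 3 cytokine genes showed no called change in either organ. Tnf, which encodes an activating signal of the pathway, had a log2 change of 0.09 in liver (95% interval -0.16 to 0.33) and 0.03 in kidney (95% interval -0.20 to 0.26) at 1000 mg/kg. Its second probe set gave 0.12 in liver and -0.04 in kidney, so the probe sets disagreed in sign in the kidney. Il1b, encoding interleukin-1 beta, had a mean of 6.61 ± 0.18 (SD, n = 4) at 1000 mg/kg and 6.91 ± 0.33 (SD, n = 5) in controls in the liver, and 5.67 ± 0.25 (SD, n = 4) and 5.92 ± 0.17 (SD, n = 5) in the same order in the kidney. The Il1b changes were -0.30 in liver and -0.24 in kidney, with limma adjusted p of 0.441 and 0.334.

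Il6, which drives the acute-phase response of hepatocytes, had the lowest liver values at 10 mg/kg, with 2.56, 2.74, 2.87 and 2.80, against 2.89, 3.41, 3.24, 2.95 and 2.92 in controls. Each array at 10 mg/kg lay below each control, as 0.886% of all genes did, with 3.59% separated in either direction, and the change of -0.34 was not called (unadjusted p = 0.0066, adjusted p = 0.371 by limma). At that dose 0 of the 9 genes and 0.00703% of all genes were called, and Il1b was the other member with an unadjusted p under 0.05, at a change of -0.36. All 10 macrophage markers were lower at that dose too, none called, where 43.2% of all genes were lower. Their mean ranged from 8.61 to 8.93 at 10 mg/kg, against 8.84 to 9.17 in controls. In the kidney Il6 averaged 2.59 ± 0.11 (SD, n = 4) at 1000 mg/kg and 2.67 ± 0.15 (SD, n = 5) in controls. In the liver at 1000 mg/kg the mean of 10 macrophage markers ranged from 8.54 to 8.81, against 8.84 to 9.17 in controls. All 10 markers were lower and none was called, where 45.7% of all genes were lower and 1.05% were called. Neutrophil and monocyte markers ranged from 4.12 to 4.41 at that dose, against 4.23 to 4.55 in controls. Their part in the Il1b and Il6 values was not tested.

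Ccl2, the chemokine that draws monocytes, varied most among the kidney values of the 9 genes, with a range of 2.37 over all arrays. Its kidney values were 5.25, 5.22, 4.89 and 6.11 at 1000 mg/kg, against 5.21, 6.66, 6.35, 6.61 and 5.66 in controls. The groups overlapped, with 1 treated array below every control and the other 3 within the range of the controls. The log2 change of -0.73 (SE 0.29) was the largest in size among the 9 genes in the kidney, but its spread was wide and it was not called (unadjusted p = 0.0197, adjusted p = 0.259 by limma). In the liver Ccl2 averaged 4.43 ± 0.65 (SD, n = 4) at 1000 mg/kg and 4.37 ± 0.29 (SD, n = 5) in controls.

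Cxcl1, a chemokine for neutrophils, had its highest liver mean at 100 mg/kg, as Tnfaip3 did. At 100 mg/kg its values were 5.59, 6.12, 6.33 and 6.31, against 6.35, 5.41, 5.03, 4.56 and 4.60 in controls. The groups overlapped through 1 control at 6.35, which was the highest of all 25 liver arrays. The mean was 6.09 ± 0.35 (SD, n = 4) at 100 mg/kg and 5.19 ± 0.74 (SD, n = 5) in controls, 1.86-fold, and the change was not called (unadjusted p = 0.0132, adjusted p = 0.384 by limma). At 1000 mg/kg the liver mean of 5.19 ± 0.34 (SD, n = 4) stood at the control level, with an interval of -0.69 to 0.70. In the kidney at 100 mg/kg the values were 3.38, 3.86, 3.65 and 3.56, against 4.10, 3.87, 4.01, 4.12 and 3.80 in controls. The change there was -0.37 (unadjusted p = 0.00108, rank 37, adjusted p = 0.415 by limma) and 0% of all genes were called.

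Icam1, the adhesion molecule to which leukocytes bind on endothelium, had kidney values of 7.18, 7.55, 7.57 and 7.57 at 1000 mg/kg, against 7.55, 7.92, 7.82, 7.60 and 7.75 in controls. The treated arrays lay at or below the low end of the controls. The log2 change was -0.26 (SE 0.10, unadjusted p = 0.0203, adjusted p = 0.262 by limma). In the liver Icam1 averaged 8.16 ± 0.11 (SD, n = 4) at 1000 mg/kg and 8.18 ± 0.12 (SD, n = 5) in controls, and the 95% interval of the change ran from -0.22 to 0.17.

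**Figure D2:**
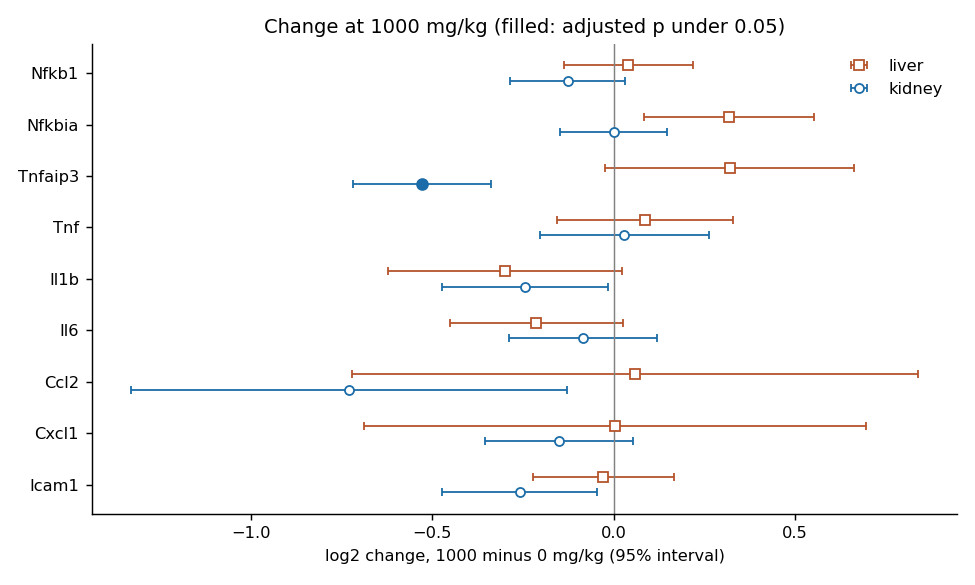
Log2 change of each of the 9 genes at 1000 mg/kg minus 0 mg/kg, in liver (squares) and kidney (circles), with 95% intervals from limma. The filled symbol marks the 1 change with an adjusted p under 0.05, Tnfaip3 in kidney at -0.53.

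Counted over the 9 genes, 7 had a negative change in the kidney at 1000 mg/kg and the median was -0.15, while 55.5% of all genes were negative with a median of -0.02. An unadjusted p under 0.05 was reached by 4 of the 9, against 13.3% of all genes. The 9 genes were chosen with earlier results of these data known, so these counts are descriptions. In the liver at 1000 mg/kg 6 of the 9 changes were positive with a median of 0.04, and the median of all genes was 0.02. When each liver array was centred on its median, 5 of the 9 were positive. An unadjusted p under 0.05 was reached there by 1 of the 9, against 12.4% of all genes.

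At the other doses no member was called by limma. In the liver, an unadjusted p under 0.05 was reached by 0 of the 9 after 1 mg/kg (9.45% of all genes) and by 0 after 500 mg/kg (10.7% of all genes), beside the 2 each after 10 mg/kg (9.22% of all genes) and 100 mg/kg (9.18% of all genes) named above. After adjustment 0% of all genes were called after 1 mg/kg and 0.0492% after 500 mg/kg. In the kidney it was reached by 1 of the 9 after 10 mg/kg, Tnfaip3 (7.35% of all genes), by 1 after 100 mg/kg, Cxcl1 (6.83% of all genes), and by 0 after 1 mg/kg (2.98%) or 500 mg/kg (5.08%). With 9 genes, 1 gene is near these shares. After adjustment 0% of all genes were called at each of these 4 doses. Arrays that lay wholly above or below the controls were seen for 0 of the 9 genes in the remaining groups, where all genes gave 2.62% for 1 mg/kg, 4.56% for 500 mg/kg and 5.18% for 1000 mg/kg in liver, and 1.06% for 1 mg/kg, 2.34% for 10 mg/kg, 1.96% for 100 mg/kg and 4.3% for 500 mg/kg in kidney. Neither the liver trend with dose rank (0.661% of all genes called) nor the test for any difference among liver doses (0.0985% called) held a member, and an unadjusted p under 0.05 was reached by 0 of the 9 in the trend (11.7% of all genes) and by 3 of the 9 in the test among doses (9.14% of all genes).

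**Figure D3:**
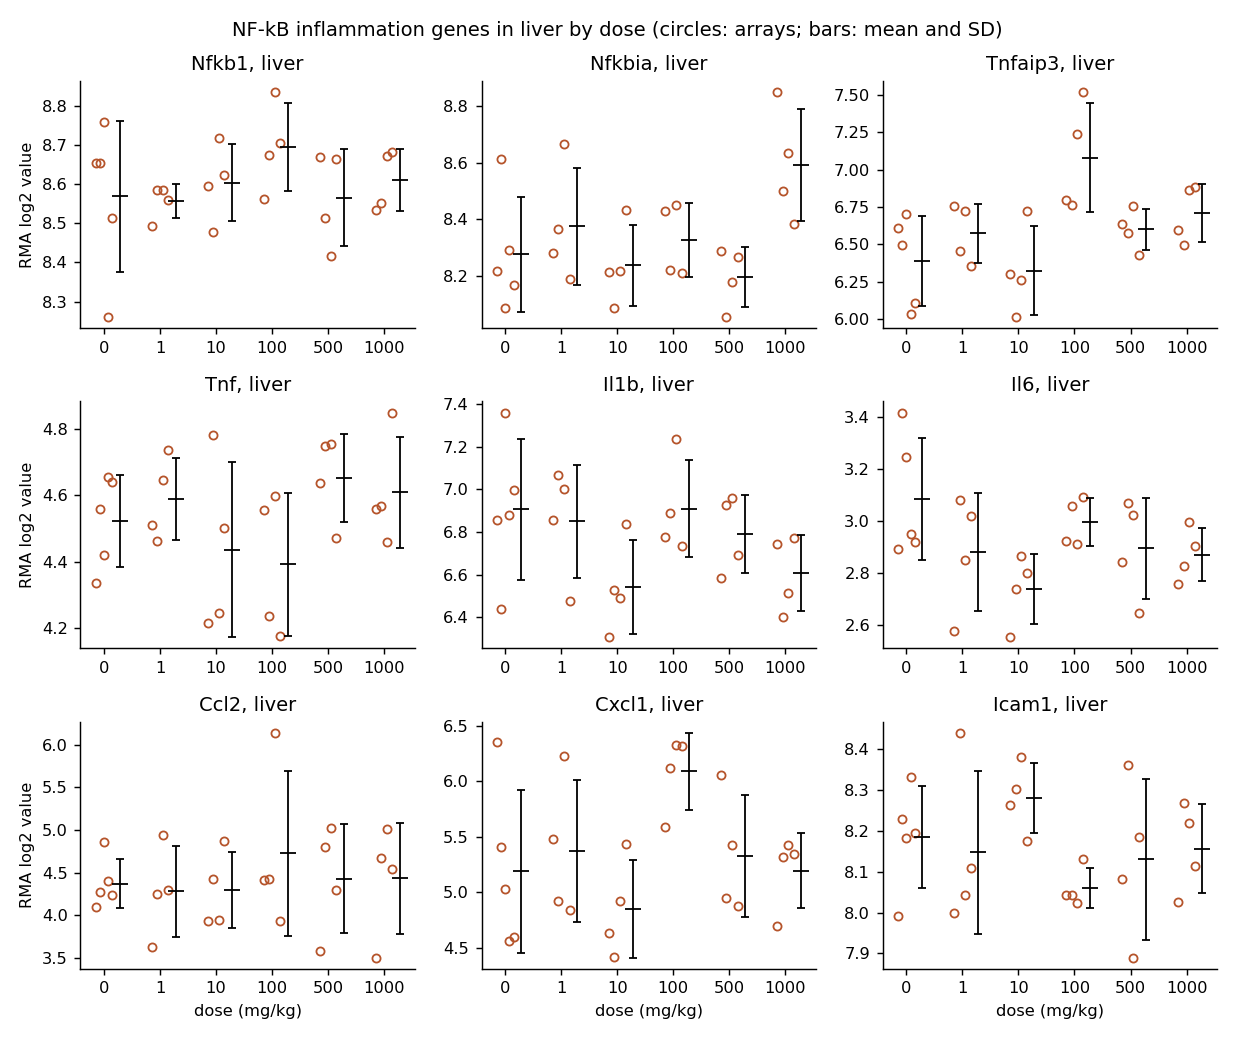
RMA log2 values of the 9 genes in liver by dose in mg/kg, 1 circle per array, with the mean and SD of each group beside them (n = 5 at 0 mg/kg and 4 elsewhere). Tnfaip3 and Cxcl1 have their highest group means at 100 mg/kg, 7.08 and 6.09. Each panel has its own vertical axis.

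The difference between the organs was tested as the change at 1000 mg/kg in the liver minus that in the kidney. Tnfaip3 was the 1 gene of the 9 called, at a log2 difference of 0.85 (SE 0.20, 95% interval 0.45 to 1.24, limma adjusted p = 0.0239), where 0.626% of all genes were called. It was 0.32 higher in treated livers than in control livers and 0.53 lower in treated kidneys than in control kidneys. The call did not hold when arrays were centred on their medians. It was also lost on leaving out kidney control replicate 2 or 3, kidney 1000 mg/kg replicate 1 or 2, liver control replicate 4, or liver 1000 mg/kg replicate 3 or 4. Nfkbia had a difference of 0.32 (95% interval 0.05 to 0.59) and Ccl2 of 0.79 (95% interval -0.21 to 1.79), neither called.

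To see which of the genes varied together, correlations were computed over the arrays of each organ for the 36 pairs of the 9 genes. Permutation p-values were adjusted over the 72 pairs of both organs. The permutations shuffled arrays across all doses, so these p-values do not separate dose differences from variation within a dose group. No p-value was computed with dose means taken out. The closest pair was Tnfaip3 and Cxcl1 in liver, with Pearson's r = 0.771 over 25 arrays (permutation p = 1e-05, the smallest these permutations can give, adjusted 0.00072) and Spearman's rho = 0.809 (permutation p = 2e-05, adjusted 0.00144). The relation held without the 2 arrays farthest from the median of Tnfaip3 (r = 0.696) and after the mean of each dose group was taken out (r = 0.667). Arrays far out in Cxcl1 were not picked for leaving out. In the kidney the same pair was not among those that passed, with r = 0.105 (adjusted permutation p = 0.871).

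**Figure D4:**
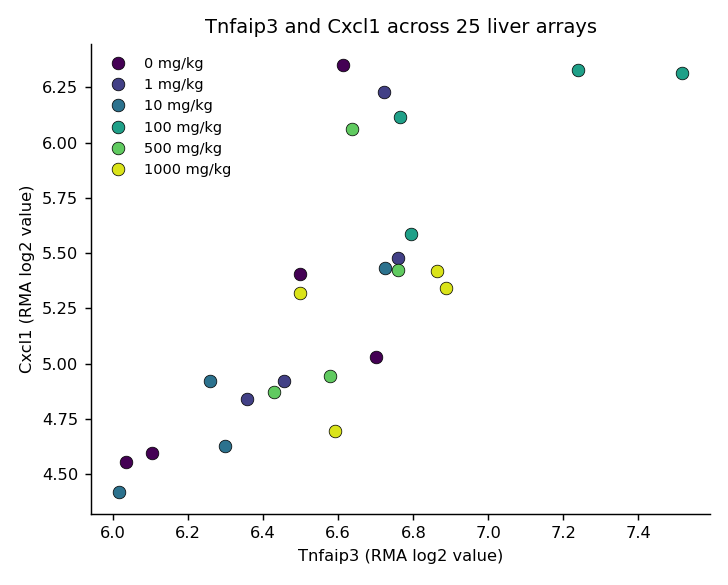
Cxcl1 against Tnfaip3 in the 25 liver arrays, both as RMA log2 values, with the dose in mg/kg by colour and 1 point per array. The values rise together (r = 0.771), and the 2 arrays highest in Tnfaip3, at 7.24 and 7.52, are from 100 mg/kg.

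Icam1 ran against Cxcl1 in the liver, with r = -0.592 (permutation p = 0.00172, adjusted 0.031) and rho = -0.636 (adjusted permutation p = 0.0242). Without the 2 arrays farthest from the Cxcl1 median r was -0.52, and with dose means taken out it was -0.464. Icam1 and Tnfaip3 in liver had rho = -0.621 (adjusted permutation p = 0.0242) while r, at -0.52, had an adjusted permutation p of 0.0598, and r was -0.354 with dose means taken out. In the kidney, r was 0.638 for Tnfaip3 and Ccl2 (adjusted permutation p = 0.0284) and 0.611 for Il1b and Ccl2 (adjusted permutation p = 0.031), while neither rho passed, with adjusted permutation p of 0.212 and 0.202. The r of Tnfaip3 and Ccl2 was 0.385 once dose means were taken out. That of Il1b and Ccl2 was 0.417 without the 2 arrays farthest from the Il1b median. The labels give no batch within which these relations could be set.

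Over all genes, those whose values ran closest to Tnfaip3 over the 24 kidney arrays were Adam17 at r = 0.859, Myof at 0.851, Cmtm3 at 0.809, Ccdc50 at 0.809 and Elk3 at 0.798. For Nfkbia over the 25 liver arrays they were Zfand2b at r = 0.692, Acbd6 at 0.685, Ugt2b7 at 0.677, Fzd8 at 0.654 and Hlx at 0.652. These arrays share the dose groups and the normalization, and the correlations are given as descriptions.

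Of 70 other genes of the pathway that were listed, 67 were measured. The list was drawn up with earlier results of these data known, so its counts are given as descriptions. In the kidney at 1000 mg/kg 3 of the 67 fell and 0 rose, where 1.55% of all genes were called. They were Ptgs2, the inducible cyclooxygenase that in the kidney serves renin release and salt handling, Tlr4, the receptor for bacterial lipopolysaccharide, and Ier3, an early response gene. Of the 67 changes 48 were negative (42 with arrays centred on their medians), against 55.5% of all genes, with a median of -0.08. An unadjusted p under 0.05 was reached by 16 of the 67, against 13.3% of all genes.

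Ptgs2 had the largest change, with kidney values of 4.29, 4.79, 4.98 and 5.08 at 1000 mg/kg, against 5.74, 6.47, 7.12, 6.49 and 7.06 in controls. No treated array reached the lowest control, and 4.71% of all genes were separated from their controls in either direction. The log2 change was -1.79 (SE 0.23, limma adjusted p = 0.000109). Ptgs2 was also the 1 gene of the 67 called in the kidney trend, falling by 0.31 per step of dose rank. A count of 1 of 67 is near the 1.39% of all genes called in that trend. Ptgs2 and Tlr4 were the 2 of the 67 called for any difference among kidney doses, where 0.38% of all genes were called. The change of Ptgs2 differed between the organs by 1.87 (limma adjusted p = 0.000176). It was the 1 call among the 67 in that test, where 0.626% of all genes were called. In the liver Ptgs2 was low throughout, averaging 3.21 ± 0.39 (SD, n = 4) at 1000 mg/kg and 3.13 ± 0.11 (SD, n = 5) in controls, and is not shown to lie above background there, so a fall in the liver might not be measurable.

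Tlr4 led the 12 receptor genes, with kidney values of 4.41, 4.62, 4.46 and 4.24 at 1000 mg/kg, against 4.92, 5.07, 5.11, 4.90 and 5.02 in controls, and a log2 change of -0.57 (SE 0.09, limma adjusted p = 0.00142). These values are low and, as with Tnf, are not shown to lie above background. Of the 12 receptors 10 had negative changes in the kidney (9 with arrays centred), the median was -0.29, and 9 had an unadjusted p under 0.05, among them Tnfrsf1a, the main TNF receptor, at -0.31 (limma adjusted p = 0.0551). Tlr4 was the 1 receptor called. Among all genes 55.5% had negative changes in that comparison, 13.3% had an unadjusted p under 0.05 and 1.55% were called. Several of these receptors are carried by macrophages and endothelium, whose markers were lower in the same arrays as given above. The endothelial markers were lower at 10, 100 and 500 mg/kg too. The part of these cells in the receptor values was not tested.

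Ier3 had kidney values of 7.24, 7.74, 7.37 and 7.24 at 1000 mg/kg, against 7.71, 7.75, 7.90, 7.88 and 8.20 in controls, and a log2 change of -0.49 (SE 0.12, limma adjusted p = 0.0390). The highest treated array overlapped the lowest control. Ier3 was no longer called without control replicate 3, 4 or 5 or without replicate 1, 3 or 4 of 1000 mg/kg, each left out in turn, nor after quantile normalisation, with centred arrays, with the 2 groups fitted alone or without the kidney arrays high in adipocyte markers. Of the 7 other inhibitor and feedback genes none was called, and Tnip1, which works with the Tnfaip3 product, had a change of 0.12. Among the 3 subunit genes Nfkb2 was at -0.31 (limma adjusted p = 0.117) and Rela at -0.10. Of the 14 kinases and adaptors none was called, Birc2 being at -0.27 (limma adjusted p = 0.184) and Birc3 at -0.23. Among the 30 other targets only Ptgs2 was called, and Cxcl11, a chemokine for T cells, was at 0.40 (limma adjusted p = 0.0707).

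In the liver at 1000 mg/kg limma called 0 of the 67 pathway genes, against 1.05% of all genes. An unadjusted p under 0.05 was reached by 9 of the 67, against 12.4% of all genes. The nearest to the threshold was Sod2, the mitochondrial superoxide dismutase, at 10.92 ± 0.05 (SD, n = 4) at 1000 mg/kg and 10.58 ± 0.11 (SD, n = 5) in controls (log2 change 0.34, limma adjusted p = 0.0525). Its arrays did not overlap, as was so for 5.18% of all genes. Sod2 was the 1 gene of the 67 called in the liver trend, where 0.661% of all genes were called. It rose by 0.06 per step of dose rank (limma adjusted p = 0.0220). That call was lost with arrays centred on their medians and without liver control replicate 1 or 4 or replicate 3 of 1000 mg/kg. Il1rn, the interleukin-1 receptor antagonist, was at 0.59 (limma adjusted p = 0.132), and Cd14, the co-receptor of Tlr4, at 0.56 (limma adjusted p = 0.386). These genes were picked by p and not by size of change. Changes of the 30 other targets ran from -0.33 to 0.88, and up to 1.56 at 500 mg/kg, none called. The other named genes lay closer to 0, with Nfkb2 at 0.24, Il1rap at 0.24, Chuk at 0.18, Nfkbib at 0.15, Tnip1 at 0.10, Relb at -0.16 and Irak4 at -0.27, none called.

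**Figure D5:**
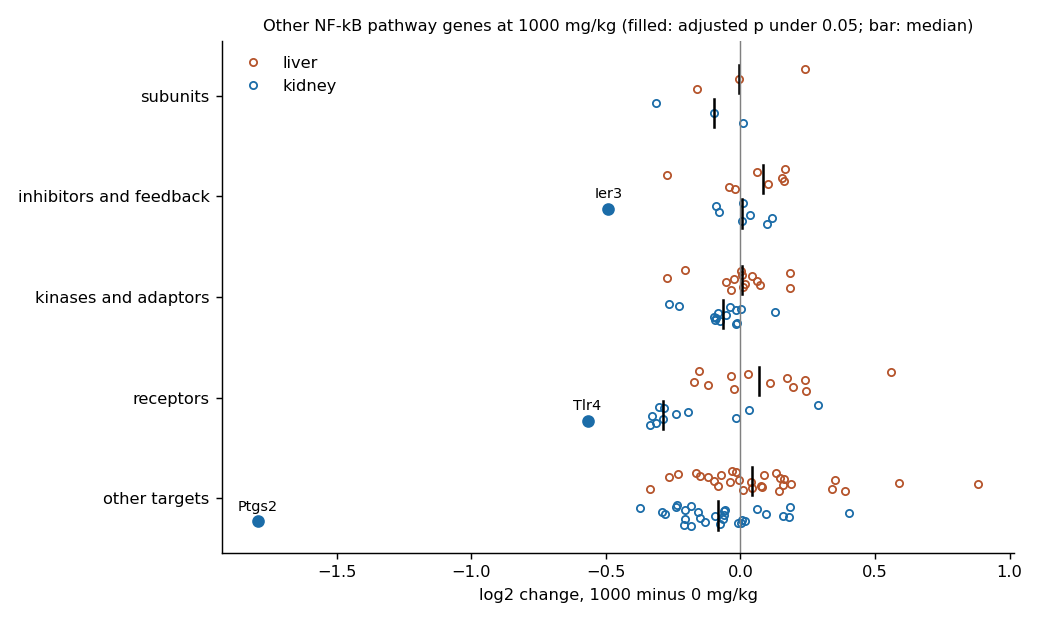
Log2 change at 1000 mg/kg minus 0 mg/kg of the 67 other pathway genes by role, liver above kidney, with a bar at each list's median. Filled symbols mark the 3 genes with an adjusted p under 0.05, Ptgs2, Tlr4 and Ier3, all in kidney and all lower, and the kidney receptors have their median at -0.29.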

How the data were processed

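Total RNA of each tissue sample was hybridised to 1 array, per the labels' protocols. The deposited log2 values came from RMA, run by the authors per the submitters' processing notes. The version, and whether the organs were normalised together, are not given in the sources used here, so levels were compared within an organ. Exceptions were the check of tissue markers, the choice of probe set and the brightness filter for the organ difference, which used arrays of both organs. RMA makes the distributions of arrays alike, so a change common to most genes could be missed. Precision is limited by how many arrays each group has.

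Of 31099 probe sets, 57 were controls, 20826 had 1 gene symbol, 436 several and 9780 none in the platform annotation. Symbols were updated through Entrez IDs (20758 probe sets) or accessions (2) and otherwise kept (66). Of a gene's probe sets the one with the highest mean over 49 arrays was used, giving 14217 genes, with no filter on low values. For each organ limma 3.58.1 (R 4.3.3) fitted the 6 dose groups, with contrasts against 0 mg/kg and an F test among doses, and a trend over dose rank. These fits per organ were first tried on simulated data. The liver minus kidney change came from 1 limma model of the 49 arrays of both organs. Each test had Benjamini-Hochberg adjustment. Correlations used 100000 permutations (scipy 1.17.1). No 2 arrays held identical values.

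The members and lists were chosen with earlier results of these data known. Named beside the 9 members were the pathway genes called in any comparison, the 2 with the smallest p per role list and organ, and the 5 genes most alike to Tnfaip3 in kidney and Nfkbia in liver. Replicate numbers were checked as pairs and do not pair samples within an organ; arrays of liver and kidney with the same dose and number correlated weakly, so their block was tried for the organ difference. Alternatives covered the probe set, a brightness filter, the normalisation, the variance model, the replicate block, the samples fitted, fat in kidney arrays and each array left out.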

Additional observations from a re-analysis of the deposited data

Results flagged for a closer look

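In 5 of 143 groups of 4 or 5 arrays tested for the 9 genes and the 4 pathway genes called, 1 array stood far from the others of its group, where chance alone gives about 1 in 20. In the kidney at 1 mg/kg, replicate 1 had Nfkbia at 8.44, with the other arrays between 8.21 and 8.23. The same array had Tnf at 4.71, with the others between 4.33 and 4.38, and Ier3 at 7.40, with the others between 7.79 and 7.86. It was among the 7 kidney arrays high in adipocyte markers. In the liver at 1000 mg/kg, replicate 1 had Cxcl1 at 4.69, with the others between 5.32 and 5.42. In the kidney at 1000 mg/kg, replicate 1 had Icam1 at 7.18, with the others between 7.55 and 7.57.

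The change at 1000 mg/kg differed between liver and kidney for Tnfaip3 by 0.85 and for Ptgs2 by 1.87, both by the limma test of the difference itself (adjusted p = 0.0239 and 0.000176). The Tnfaip3 call was lost with arrays centred on their medians and on leaving out single arrays, as given above. Ptgs2 in liver, at 3.13 ± 0.11 (SD, n = 5) in controls, is not shown to lie above background.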

How the results depend on the processing

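The kidney call of Tnfaip3 at 1000 mg/kg held in every alternative that tested it, with log2 changes of -0.60 to -0.48 and limma adjusted p of 0.000826 to 0.0406. The brightness filter leaves Tnfaip3, Ptgs2 and Tlr4 untested in kidney. With it, members called in kidney became 0 at 1000 mg/kg and 0 for any difference among doses, and pathway genes called became 0 in the kidney trend. For the organ difference the filter used the mean over all arrays of both organs, and members called became 0 and pathway genes called became 0. That filter and the variance trend each called 1 pathway gene, Sod2, in liver at 1000 mg/kg. The Sod2 trend call became 0 with every probe set fitted, with centred arrays and with the replicate block. The organ difference called 0 members with centred arrays, and 2 pathway genes, Ptgs2 and Tlr4, when arrays of both organs with 1 dose and number formed a random block. Any difference among kidney doses called 0 members without the 7 kidney arrays high in adipocyte markers. The kidney trend called 2 pathway genes without those arrays, with the adipocyte level as a covariate, and with the variance trend. The cause of these moves was not tested.

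Same-numbered arrays of 1000 and 0 mg/kg correlated at -0.15 to 0.12 in liver and -0.12 to 0.11 in kidney in their deviations from group means. Liver and kidney arrays of the same dose and number correlated at -0.02 to 0.23 (median 0.11, against -0.04 for other numbers), and with these as a random block the organ difference of Tnfaip3 was still called. With the replicate block Tnfaip3 in kidney was at -0.57 (limma adjusted p = 0.00267) and 1 member was called at 1000 mg/kg.

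Small changes turned sign. Cxcl1 in liver was -0.029 with centred arrays and -0.143 with the replicate block, Nfkb1 in liver was -0.014 after quantile normalisation, Tnf in kidney was -0.007 with the mean of its probe sets and -0.0091 with the block, and Nfkbia in kidney was -0.012 with the block. With arrays left out in turn the liver changes ranged from -0.13 to 0.37 for Ccl2, from -0.15 to 0.30 for Cxcl1, from -0.077 to 0.015 for Icam1 and from -0.036 to 0.089 for Nfkb1, and the kidney changes from -0.025 to 0.029 for Nfkbia and from -0.032 to 0.111 for Tnf. Members called ranged from 0 to 1 for any difference among kidney doses, the kidney trend and the organ difference. Pathway genes called ranged from 2 to 5 in kidney at 1000 mg/kg (5 without control replicate 5), from 1 to 3 in the kidney trend, from 0 to 1 in liver at 1000 mg/kg, from 0 to 1 in the liver trend and from 1 to 3 in the organ difference. The alternatives for pathway genes and for correlations were chosen after seeing the data.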
